A study of Mus musculus with 18 samples.

Results

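Semaphorins, plexins and neuropilins, a set of guidance ligands and their receptors, were followed by RNA sequencing through the layers of the mouse neocortex at postnatal day 7. The members were all genes of the deposited count table whose symbol is that of a semaphorin of class 3 to 7, of a plexin of family A to D, or Nrp1 or Nrp2. They numbered 31 of 54446 genes: 20 semaphorins, 9 plexins and 2 neuropilins. By class there were 7 semaphorins of class 3, 6 of class 4, 2 of class 5, 4 of class 6 and 1 of class 7. All 31 passed the filter on low counts in each of the 14 comparisons made. The tissue came from 6 outbred CD-1 mice electroporated in utero at E14.5, a stage of embryonic neurogenesis. In 3 mice the plasmids carried GFP and no FOXP2 cDNA (GFP mice), in 2 mice GFP and human FOXP2 (huFOXP2), and in 1 mouse GFP and mouse Foxp2 (moFoxp2). The huFOXP2 and moFoxp2 animals together are called FOXP2 mice. All 6 animals thus carried GFP. From 300 µm sagittal sections the authors cut out upper layers 2-3 (L2-3), layer 4 (L4) and deep layers 5-6 (L5-6), pooled within each mouse, which gave 18 libraries. The labels call L4 GFP-positive and the other layers GFP-negative, and they name L2-3 as infragranular although it lies above the granular layer. The promoter of the plasmids and the share of cells that took them up are not stated in the labels.

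Semaphorins are secreted or membrane-bound proteins that steer growing axons and dendrites, mostly by repulsion, and plexins are their receptors. Class 3 semaphorins are secreted, and most of them bind a neuropilin that passes the signal to a plexin of family A; Sema3e is the exception and binds Plxnd1 directly. Classes 4 to 6 span the membrane, with Sema4d as the ligand of Plxnb1 and class 6 members as ligands of family A plexins, and Sema7a is held by a lipid anchor and acts through integrins and Plxnc1. In the developing cortex these genes act in the migration and layering of neurons, in the crossing of callosal axons and in the growth of vessels.

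The libraries held 10111149 to 23404528 counts, and levels are given as CPM, counts brought to a common library size, after scaling of the library totals. Foxp2, which encodes a forkhead transcription factor of deep-layer neurons, checked the constructs. It stood at 1.77 to 6.54 CPM in L2-3 of GFP mice against 20.2 to 52.3 CPM in FOXP2 mice. In L4 it stood at 5.39 to 8.75 against 33.3 to 64.9 CPM, and in L5-6 the ranges overlapped (52.5 to 68.6 against 39.6 to 77.8 CPM). Only the L4 rise passed the test (2.75 ± 0.30, log2 fold change ± SE, edgeR adjusted p = 0.0247), while that in L2-3 did not (2.78 ± 0.51, adjusted p = 0.0829). The dissections were not equal between mice. The summed CPM of 9 meningeal fibroblast markers in L2-3 was 417, 1248 and 929 in GFP mice 1, 2 and 3 and 1481 to 2159 in FOXP2 mice, against 28.0 to 96.5 in L4 and L5-6 libraries. The summed CPM of 12 oligodendrocyte markers in L5-6 was 4340, 1305 and 2288 in GFP mice 1, 2 and 3 and 1195 to 1923 in FOXP2 mice, against 373 to 760 in the other layers. In huFOXP2 mouse 1 a set of 4 photoreceptor markers summed to 11.5, 18.1 and 21.3 CPM in L2-3, L4 and L5-6, and in the other 5 mice to 0.634 to 2.01 CPM.

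Per length of exon, Sema7a was the most abundant member in each layer of both sets of mice, with a median of 149 CPM per kb over the 18 libraries. Plxnd1 (55.4), Plxna1 (45.3), Sema6b (35.9) and Sema6c (22.4 CPM per kb) followed. The remaining levels fell in a graded series from Plxna4 (16.5 CPM per kb) to Plxnb3 (0.402 CPM per kb). The class 3 semaphorins and the neuropilins lay in the lower part of this order, from Sema3c (5.56 CPM per kb) through Nrp1 (2.51) and Nrp2 (1.38) to Sema3b (0.685). Sema3b, a secreted ligand, had the thinnest counts, with 7 reads in its lowest library, and its values are correspondingly imprecise. Across the 18 libraries, Plxnb3 ranged most widely, from 1.41 to 73.3 CPM, whereas Sema4c, a class 4 ligand, stayed between 26.9 and 38.02 CPM. In mm10 the leading member Sema7a (ENSMUSG00000038264.8) lies on chromosome 9 from 57940112 to 57962865 and Plxnd1 (ENSMUSG00000030123.15) on chromosome 6 from 115954811 to 115995005. Plxnb3 (ENSMUSG00000031385.14) lies on chromosome X from 73757090 to 73772514, Sema3e (ENSMUSG00000063531.7) on chromosome 5 from 14025276 to 14256689 and Nrp2 (ENSMUSG00000025969.15) on chromosome 1 from 62703285 to 62818695. Exons of 3 members overlap an annotated gene on the same strand (Nrp1, Plxnc1 and Sema4a) and those of 4 a gene on the other strand (Plxna1, Plxna4, Plxnb1 and Sema4c), and reads of such pairs may have been split or lost in the counting. The heat map of all 31 members sets these levels beside each other, each gene on its own scale.

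**Figure D1:**
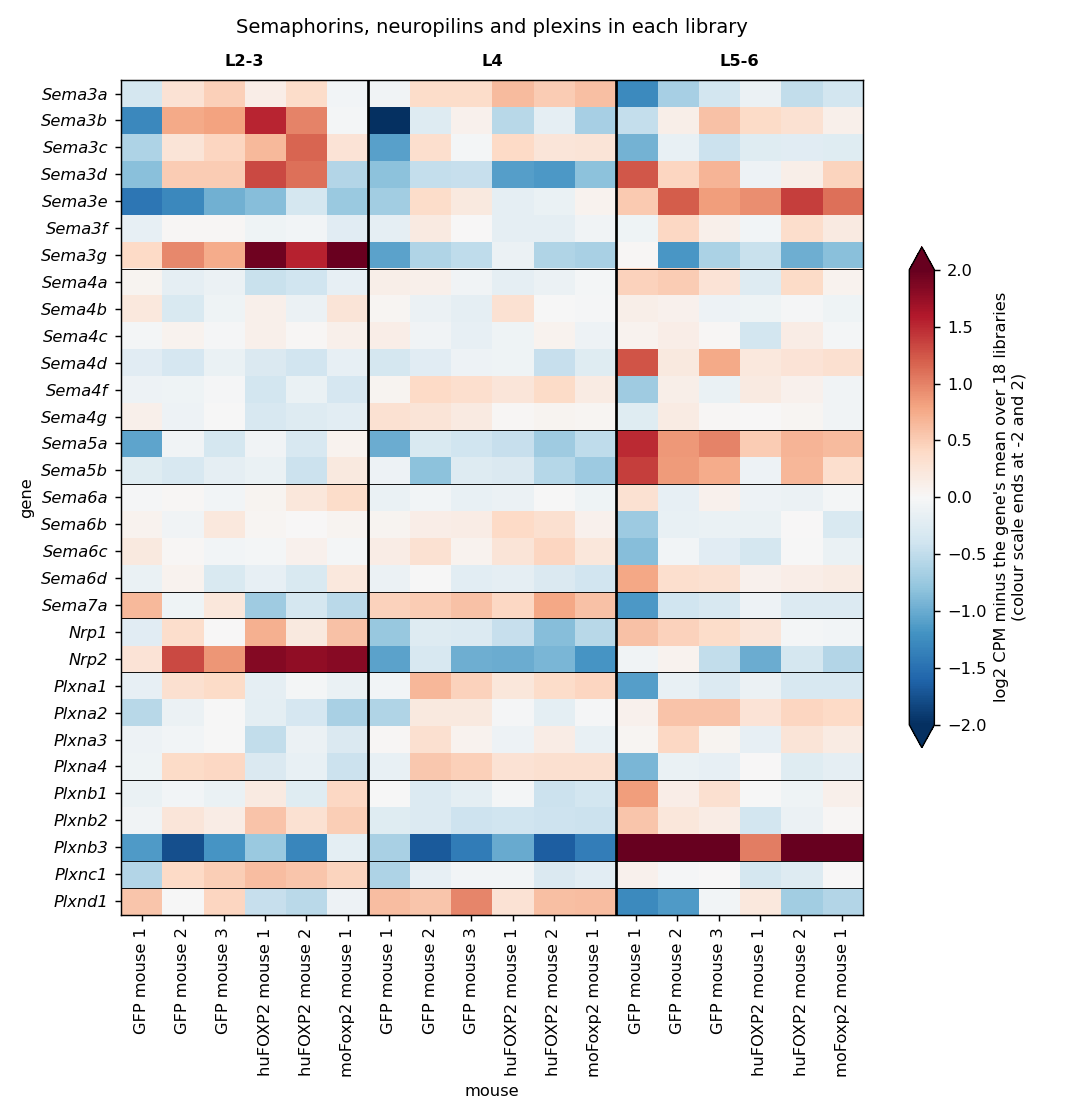
Each row is a member and each column a library, grouped by layer, and the colour is the log2 CPM relative to the mean of that gene over the 18 libraries. Plxnb3, Sema3e, Sema5a and Sema5b have their highest values in L5-6, and Nrp2 and Sema3g in L2-3.

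Members that differ between layers are shown here by the 250 bases before their RefSeq transcription start, read from GRCm38.p6 on the strand of the gene from 5′ to 3′. Shown are a pair that was lower in L5-6 than in L4 (Sema7a, Plxnd1) and a pair that was higher (Plxnb3, Sema3e). They were chosen because each has a single start in the set of RefSeq promoters used here. Capitals mark matches, on either strand, to any of 3 motifs: TGTTTAC, a forkhead core such as FOXP2 binds; AGGTCA, a nuclear receptor half-site as bound by RORB; and ACAAAG, a SOX core. The windows are Sema7a at chr9:57939862-57940111 (+), Plxnd1 at chr6:115995006-115995255 (-), Plxnb3 at chrX:73756853-73757102 (+) and Sema3e at chr5:14025026-14025275 (+).
Sema7a: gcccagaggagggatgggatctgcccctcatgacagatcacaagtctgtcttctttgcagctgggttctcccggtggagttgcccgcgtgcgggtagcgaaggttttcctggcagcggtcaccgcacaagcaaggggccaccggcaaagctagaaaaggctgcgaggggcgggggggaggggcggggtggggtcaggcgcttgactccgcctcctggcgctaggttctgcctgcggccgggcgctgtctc
Plxnd1: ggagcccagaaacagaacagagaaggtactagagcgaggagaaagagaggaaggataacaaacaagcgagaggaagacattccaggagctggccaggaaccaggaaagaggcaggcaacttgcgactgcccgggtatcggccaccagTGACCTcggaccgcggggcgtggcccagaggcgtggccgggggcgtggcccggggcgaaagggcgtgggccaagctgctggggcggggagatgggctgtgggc
Plxnb3: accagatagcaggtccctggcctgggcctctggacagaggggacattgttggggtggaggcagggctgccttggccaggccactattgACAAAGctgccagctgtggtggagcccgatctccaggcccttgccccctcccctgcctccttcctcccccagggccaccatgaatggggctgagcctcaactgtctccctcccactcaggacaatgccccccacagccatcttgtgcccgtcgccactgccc
Sema3e: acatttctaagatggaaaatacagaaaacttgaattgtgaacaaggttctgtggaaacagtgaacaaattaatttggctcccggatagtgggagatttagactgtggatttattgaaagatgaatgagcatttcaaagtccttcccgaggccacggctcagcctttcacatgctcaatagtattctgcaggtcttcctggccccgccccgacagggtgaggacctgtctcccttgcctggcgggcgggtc
The set of RefSeq promoters used here held 26 of the 31 members, 37 windows in all. TGTTTAC was in 0 of the 37 and in 3.17% of the 32851 windows of all genes. AGGTCA was in 7 of the 37 (1 window each of Nrp1, Plxnb2, Plxnd1, Sema4b, Sema4d, Sema5a and Sema6b) and in 14.0% of all windows. ACAAAG was in 5 of the 37 (1 window each of Plxnb3, Sema3a, Sema3d, Sema4f and Sema6d) and in 16.5% of all windows. In Plxnd1 the capitals read TGACCT, the AGGTCA motif on the other strand, and in Plxnb3 they read ACAAAG. Sema7a and Sema3e held none of the 3 motifs in this window. Matches of this length are a description of the letters and not of binding. The windows also differed in base composition, with 17 CpG pairs for Sema7a, 16 for Plxnd1, 7 for Sema3e and 3 for Plxnb3. The median was 13 over the windows of the members and 6 over the windows of all genes.

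Differences between layers were tested within GFP mice and within FOXP2 mice, which share no library, with the mouse as a block. Between L5-6 and L2-3 of GFP mice, 9 members were higher and 8 lower in L5-6, where 12% of all tested genes were higher and 10.7% lower. In FOXP2 mice 10 were higher and 9 lower, where the shares of all tested genes were 19.8% and 21.6%. Calls at an adjusted p under 0.05 in both sets of mice were made for 6 members higher in L5-6 (Plxna2, Plxnb3, Sema3e, Sema4a, Sema4d and Sema5a) and 4 lower (Nrp2, Sema3a, Sema3c and Sema3g). Sema7a was called in both with opposite signs, and 6 members were called in neither set. The share of all genes called in both sets was not computed, so these counts cannot be set against it. Between L5-6 and L4, 13 members were higher and 8 lower in GFP mice (12.7% and 9.96% of all tested genes), and 9 were higher and 8 lower in FOXP2 mice (12.1% and 8.11%). Between L4 and L2-3, 1 member was higher and 2 were lower in GFP mice (1.67% and 4.4% of all tested genes), and 10 were higher and 11 lower in FOXP2 mice (19.5% and 23.5%). The plot of layer differences gives all 31 members in both sets of mice.

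Single mice moved these counts, which rest on 3 animals each. Shares of all genes called in these alternative fits were not set beside the counts. Without GFP mouse 3, the 17 calls between L5-6 and L2-3 of GFP mice fell to 9 and the 21 calls between L5-6 and L4 to 8. The 3 calls between L4 and L2-3 of GFP mice became 13 without GFP mouse 1 and 0 without GFP mouse 2 or GFP mouse 3. The 17 calls between L5-6 and L4 of FOXP2 mice fell to 10 without huFOXP2 mouse 2. Without the mouse as a block, 7 of the 17 calls (Sema3a, Plxna4, Plxna2, Plxna1, Plxnd1, Plxnb1 and Sema3c) and 12 of the 21 (Sema3a, Plxna4, Plxna1, Plxna2, Sema3e, Sema6d, Plxnb1, Sema4a, Sema4f, Sema6b, Nrp2 and Sema6c) in GFP mice were lost. A call said below to be kept or held passed under each of the 9 alternatives tried for its contrast. In dissected tissue, fewer cells of a type and less RNA of a gene per cell cannot be told apart.

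**Figure D2:**
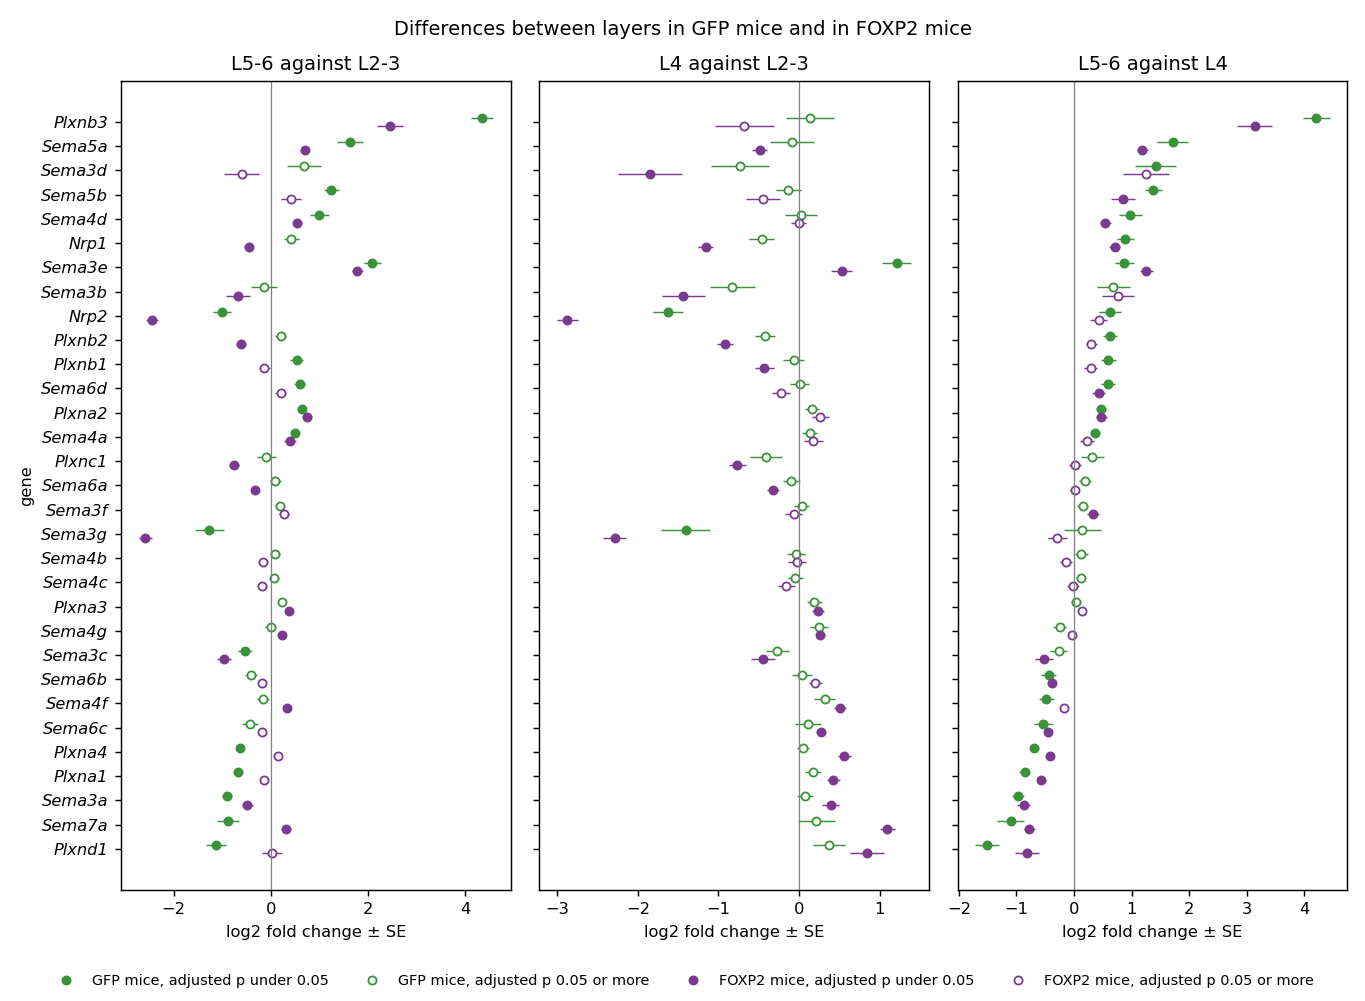
Log2 fold changes between layers with their standard errors, for each member, from edgeR fits of 9 libraries with the mouse as a block; colours stand for GFP and FOXP2 mice and filled points for an adjusted p under 0.05. Plxnb3 lies farthest to the right in L5-6 against both other layers. Nrp2 and Sema3g lie farthest to the left in L4 against L2-3, and in L5-6 against L2-3 of FOXP2 mice.

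Among the secreted class 3 ligands, Sema3e was higher in deeper layers, whereas Sema3a, Sema3c and Sema3g were lower in L5-6 than in L2-3. Sema3e, the ligand of Plxnd1, stood at 4.86, 5.41 and 6.82 CPM in L2-3 of GFP mice 1 to 3, at 8.21, 17.2 and 15.1 CPM in L4 and at 19.0, 30.7 and 23.7 CPM in L5-6. In the FOXP2 mice (moFoxp2, huFOXP2 1 and huFOXP2 2) it stood at 7.95, 7.31 and 10.4 CPM in L2-3, at 13.9, 11.7 and 12.04 CPM in L4 and at 28.5, 25.2 and 34.7 CPM in L5-6. Its values thus rose from L2-3 through L4 to L5-6 in each of the 6 mice, and the L2-3 and L5-6 ranges did not overlap. The difference between L5-6 and L2-3 was 2.09 ± 0.17 in GFP mice (adjusted p = 0.00012) and 1.78 ± 0.12 in FOXP2 mice (adjusted p = 1.97e-06). Both calls held under each alternative. The step from L2-3 to L4 passed in GFP mice (1.21 ± 0.18, adjusted p = 0.00716) but not without GFP mouse 2 (0.0962) or GFP mouse 3 (0.153), with 9.54e-08 (no filter on low counts) to 0.153 over all alternatives. The step in FOXP2 mice (0.53 ± 0.13, adjusted p = 0.00672) did not pass without moFoxp2 (0.052) or huFOXP2 mouse 1 (0.0724), within a range of 0.000639 to 0.0724.

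Sema3a, the repellent that acts through Nrp1 and family A plexins, was lowest in L5-6 of each mouse. It stood at 29.1, 45.1 and 51.3 CPM in L2-3 of GFP mice, at 35.2, 47.4 and 47.5 CPM in L4 and at 15.3, 23.3 and 28.5 CPM in L5-6. In FOXP2 mice, in the order moFoxp2, huFOXP2 1 and huFOXP2 2, the values were 35.4, 40.6 and 47.9 CPM in L2-3, 56.1, 57.0 and 52.5 CPM in L4 and 28.8, 34.1 and 26.4 CPM in L5-6. The difference of L5-6 from L4 was -0.98 ± 0.10 in GFP mice (adjusted p = 0.000794) and -0.87 ± 0.11 in FOXP2 mice (adjusted p = 0.000709). Against L2-3 the difference was -0.90 ± 0.10 in GFP mice (adjusted p = 0.000543) and -0.48 ± 0.11 in FOXP2 mice (adjusted p = 0.00638), and the latter did not pass without huFOXP2 mouse 2 (0.0564, the highest over its alternatives, the lowest being 2.5e-06).

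Sema3g, a class 3 ligand of vessels that binds Nrp2, had its highest value in L2-3 of each mouse. It stood at 7.60, 11.2 and 9.62 CPM in L2-3 of GFP mice and at 22.5, 22.2 and 16.8 CPM in L2-3 of FOXP2 mice, in the order of mice given above. Its 12 values in L4 and L5-6 lay between 2.57 and 5.86 CPM, below each L2-3 value. The difference of L5-6 from L2-3 was -1.26 ± 0.30 in GFP mice (adjusted p = 0.0174) and -2.58 ± 0.14 in FOXP2 mice (adjusted p = 6.02e-07). The call in GFP mice did not pass without GFP mouse 2 (0.122) or GFP mouse 3 (0.165), within a range of 3.33e-06 to 0.165, and that in FOXP2 mice passed under each alternative. Sema3c, a ligand with attractive actions on cortical axons, was lower in L5-6 than in L2-3 in FOXP2 mice (-0.96 ± 0.15, adjusted p = 0.000569, kept under each alternative) and in GFP mice (-0.54 ± 0.14, adjusted p = 0.0274). The call in GFP mice did not pass without GFP mouse 2 (0.0657) or GFP mouse 3 (0.31), within a range of 0.000773 to 0.4. Sema3f, which acts through Nrp2, differed little between layers, with means of 21.5 to 26.7 CPM, and passed only in L5-6 against L4 of FOXP2 mice (0.33 ± 0.10, adjusted p = 0.0448). That call was lost under 7 of its 9 alternatives, among them each left-out mouse (0.051 to 0.334).

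Sema3d and Sema3b were low and varied between mice. Sema3d stood at 6.17, 15.7 and 15.7 CPM in L2-3 of GFP mice and at 7.36, 27.5 and 23.6 CPM in L2-3 of FOXP2 mice. In both sets the mouse with the lowest meningeal marker sum of its set, GFP mouse 1 and moFoxp2, had the lowest Sema3d and Sema3b values in L2-3. Sema3b stood at 1.26, 5.18 and 5.35 CPM there in GFP mice and at 2.99, 8.80 and 6.11 CPM in FOXP2 mice. L4 was lower than L2-3 in FOXP2 mice for both, with differences of -1.85 ± 0.40 for Sema3d (adjusted p = 0.00364) and -1.44 ± 0.26 for Sema3b (adjusted p = 0.00149). Sema3d was also higher in L5-6 than in L4 of GFP mice (1.41 ± 0.36, adjusted p = 0.0251), which did not pass without GFP mouse 2 (0.0555) or GFP mouse 3 (0.118), within 2.42e-07 to 0.118. The meningeal markers were also higher in L2-3 than in the other layers in each mouse, and their part in the values of Sema3b, Sema3d, Sema3g and Nrp2 in L2-3 was not tested in the contrasts between layers.

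Both neuropilins varied by layer in different ways. Nrp2, the receptor of Sema3f and Sema3g, was highest in L2-3, at 24.9, 51.3 and 37.8 CPM in GFP mice and 72.5, 73.4 and 70.7 CPM in FOXP2 mice. In L4 it stood at 9.77, 16.5 and 10.4 CPM in GFP mice and 9.09, 10.3 and 10.9 CPM in FOXP2 mice. In L5-6 it stood at 19.5, 21.6 and 14.55 CPM and at 13.7, 10.3 and 16.1 CPM. L2-3 was thus above the other layers in each mouse, with no overlap between L2-3 and the deeper layers. The difference of L4 from L2-3 was -1.63 ± 0.19 in GFP mice (adjusted p = 0.00295) and -2.87 ± 0.13 in FOXP2 mice (adjusted p = 2.04e-07). The former call did not pass without GFP mouse 2 (0.0577) or GFP mouse 3 (0.0929), within a range of 3.03e-13 to 0.0929. The difference of L5-6 from L2-3 was -1.01 ± 0.18 in GFP mice (adjusted p = 0.00466) and -2.45 ± 0.12 in FOXP2 mice (adjusted p = 3.44e-07). Again the former call did not pass without GFP mouse 2 (0.064) or GFP mouse 3 (0.0898), within 6.63e-08 to 0.0898.

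Nrp1, the receptor of Sema3a, was lowest in L4 of each mouse. It stood at 14.7, 20.7 and 20.5 CPM in L4 of GFP mice and at 16.98, 17.96 and 13.7 CPM in L4 of FOXP2 mice, and in L5-6 at 37.1, 34.2 and 32.01 and at 23.9, 29.4 and 24.2 CPM. L5-6 exceeded L4 by 0.89 ± 0.15 in GFP mice (adjusted p = 0.0058) and by 0.70 ± 0.10 in FOXP2 mice (adjusted p = 0.00103), and both calls held under each alternative. Against L2-3 the direction depended on the mice. L5-6 was 0.42 ± 0.15 above L2-3 in GFP mice, which did not pass (adjusted p = 0.0699), and it was lower than L2-3 in FOXP2 mice (-0.46 ± 0.09, adjusted p = 0.00241). The L2-3 values were 21.1, 31.7 and 24.9 CPM in GFP mice and 37.1, 40.6 and 28.4 CPM in FOXP2 mice.

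Of the membrane-bound semaphorins, those of class 5 had their highest levels in the deep layers, and those of class 6 went both ways. Sema5a stood at 23.5, 46.5 and 38.4 CPM in L2-3 of GFP mice, at 24.5, 39.6 and 36.9 CPM in L4 and at 138, 88.8 and 97.6 CPM in L5-6. In FOXP2 mice it stood at 51.1, 46.6 and 39.3 CPM in L2-3, at 34.4, 35.7 and 30.0 CPM in L4 and at 75.9, 69.8 and 78.0 CPM in L5-6. All 6 values in L5-6 lay above all 12 others. L5-6 exceeded L2-3 by 1.62 ± 0.27 in GFP mice (adjusted p = 0.00355) and 0.70 ± 0.09 in FOXP2 mice (adjusted p = 0.000163), and it exceeded L4 by 1.71 ± 0.27 (adjusted p = 0.00436) and 1.19 ± 0.09 (adjusted p = 5.63e-05). These 4 calls held under each alternative. Sema5b, the other class 5 member, was 1.24 ± 0.15 higher in L5-6 than in L2-3 of GFP mice (adjusted p = 0.000798), from 26.3 to 29.1 CPM to 55.03 to 85.7 CPM, which held under each alternative. In FOXP2 mice the difference was 0.41 ± 0.20 and did not pass (adjusted p = 0.128), with 24.5 to 37.8 CPM in L2-3 and 30.8, 41.6 and 52.4 CPM in L5-6.

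Among class 6, Sema6b and Sema6c were lower in L5-6 and Sema6d higher, each against L4. Sema6b fell by 0.44 in GFP mice (-0.44 ± 0.13, adjusted p = 0.0395) and by 0.39 in FOXP2 mice (-0.39 ± 0.08, adjusted p = 0.00926), and was lower in L5-6 in each of 6 mice. Sema6c fell by 0.53 in GFP mice (-0.53 ± 0.16, adjusted p = 0.0487) and by 0.45 in FOXP2 mice (-0.45 ± 0.07, adjusted p = 0.00153), the latter under each alternative. Both calls in GFP mice did not pass without GFP mouse 2 (0.067 and 0.0969) or GFP mouse 3 (0.161 and 0.145), and that of Sema6b in FOXP2 mice not without huFOXP2 mouse 1 (0.0798). Over all alternatives the adjusted p ranged from 0.00157 to 0.161 for Sema6b and from 0.000348 to 0.145 for Sema6c in GFP mice, and from 4.96e-06 to 0.0798 for Sema6b in FOXP2 mice. Sema6d exceeded L4 by 0.59 ± 0.12 in GFP mice (adjusted p = 0.0115) and 0.43 ± 0.11 in FOXP2 mice (adjusted p = 0.0225), in 6 of 6 mice. These 2 calls did not pass without GFP mouse 3 (0.105) and without huFOXP2 mouse 2 (0.107), within 1.25e-05 to 0.105 and 3.43e-06 to 0.107. Sema6a, a ligand of Plxna2 and Plxna4, passed only in FOXP2 mice, where L2-3 (106 to 131 CPM) lay above L5-6 (93.8 to 98.5 CPM). The difference of L5-6 from L2-3 was -0.32 ± 0.07 (adjusted p = 0.00498), kept under each alternative. In these mice L4 was also called lower than L2-3 and kept the call, at -0.39 to -0.22 over the alternatives (adjusted p 0.000255 to 0.0446).

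Of class 4, Sema4d and Sema4a were higher in L5-6 than in L2-3. Sema4f and Sema4g were higher in both L4 and L5-6 than in L2-3 of FOXP2 mice. Sema4b and Sema4c passed in no contrast between layers. Sema4d, the ligand of Plxnb1 and a gene of oligodendrocytes as well as neurons, stood at 33.1 to 39.4 CPM in the 6 L2-3 libraries. In L5-6 it stood at 104, 49.5 and 73.5 CPM in GFP mice and at 53.9, 49.9 and 52.6 CPM in FOXP2 mice, each above all L2-3 values. The difference was 0.999 ± 0.19 in GFP mice (adjusted p = 0.0071) and 0.54 ± 0.09 in FOXP2 mice (adjusted p = 0.000771). The former did not pass without GFP mouse 3 (0.0732, within 1.33e-08 to 0.0732), and the latter passed under each alternative. Sema4a was higher in L5-6 than in L2-3 by 0.50 ± 0.09 in GFP mice (adjusted p = 0.00458) and by 0.40 ± 0.12 in FOXP2 mice (adjusted p = 0.021), in 6 of 6 mice. The calls of Sema4a did not pass without GFP mouse 2 (0.0619) or 3 (0.0709) and without huFOXP2 mouse 2 (0.185), with a range of 0.000347 to 0.0709 in GFP mice and 0.00104 to 0.185 in FOXP2 mice. Sema4f had its highest value in L4 of each mouse, and L4 exceeded L2-3 by 0.51 ± 0.07 in FOXP2 mice (adjusted p = 0.000326, kept under each alternative) and by 0.32 ± 0.13 in GFP mice, which did not pass (adjusted p = 0.202). Sema4g was 0.27 ± 0.06 higher in L4 than in L2-3 of FOXP2 mice (adjusted p = 0.00483), which did not pass without huFOXP2 mouse 1 (0.0616) or 2 (0.0514), within 0.00333 to 0.0616. In L5-6 against L2-3 of FOXP2 mice, the call of Sema4f did not pass without huFOXP2 mouse 1 (0.0728, within 0.000924 to 0.0728). That of Sema4g did not pass without huFOXP2 mouse 1 (0.119) or 2 (0.0933), within 0.00748 to 0.119. Sema4b and Sema4c had means of 26.8 to 30.4 CPM and 32.8 to 36.4 CPM, and their p values before adjustment were 0.12 or more in all 6 contrasts between layers.

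Plxnd1, the receptor of Sema3e, was highest in L4 of each mouse, and Sema7a, the lipid-anchored member, in L4 of each mouse but GFP mouse 1. Sema7a stood at 716, 744 and 781 CPM in L4 of GFP mice and at 787, 701 and 896 CPM in L4 of FOXP2 mice, and in L5-6 at 236, 397 and 417 CPM and at 433, 489 and 433 CPM. No L5-6 value reached any L4 value. The difference of L5-6 from L4 was -1.10 ± 0.23 in GFP mice (adjusted p = 0.0132) and -0.78 ± 0.10 in FOXP2 mice (adjusted p = 0.00057). The call in FOXP2 mice held under each alternative, and that in GFP mice did not pass without GFP mouse 3 (0.0848, within 4.65e-10 to 0.0848). L4 exceeded L2-3 by 1.10 ± 0.10 in FOXP2 mice (adjusted p = 1.47e-05), kept under each alternative. In L2-3 Sema7a stood at 819, 492 and 613 CPM in GFP mice and at 359, 321 and 409 CPM in FOXP2 mice, without overlap, and this difference did not pass (-0.83 ± 0.19, adjusted p = 0.1055). L5-6 was thus lower than L2-3 in GFP mice (-0.88 ± 0.23, adjusted p = 0.028) and higher in FOXP2 mice (0.32 ± 0.10, adjusted p = 0.0238). The first of these did not pass without GFP mouse 3 (0.106, within 8.03e-08 to 0.106), and the second not without moFoxp2 (0.0528) or huFOXP2 mouse 1 (0.219), within 5.02e-05 to 0.219.

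**Figure D3:**
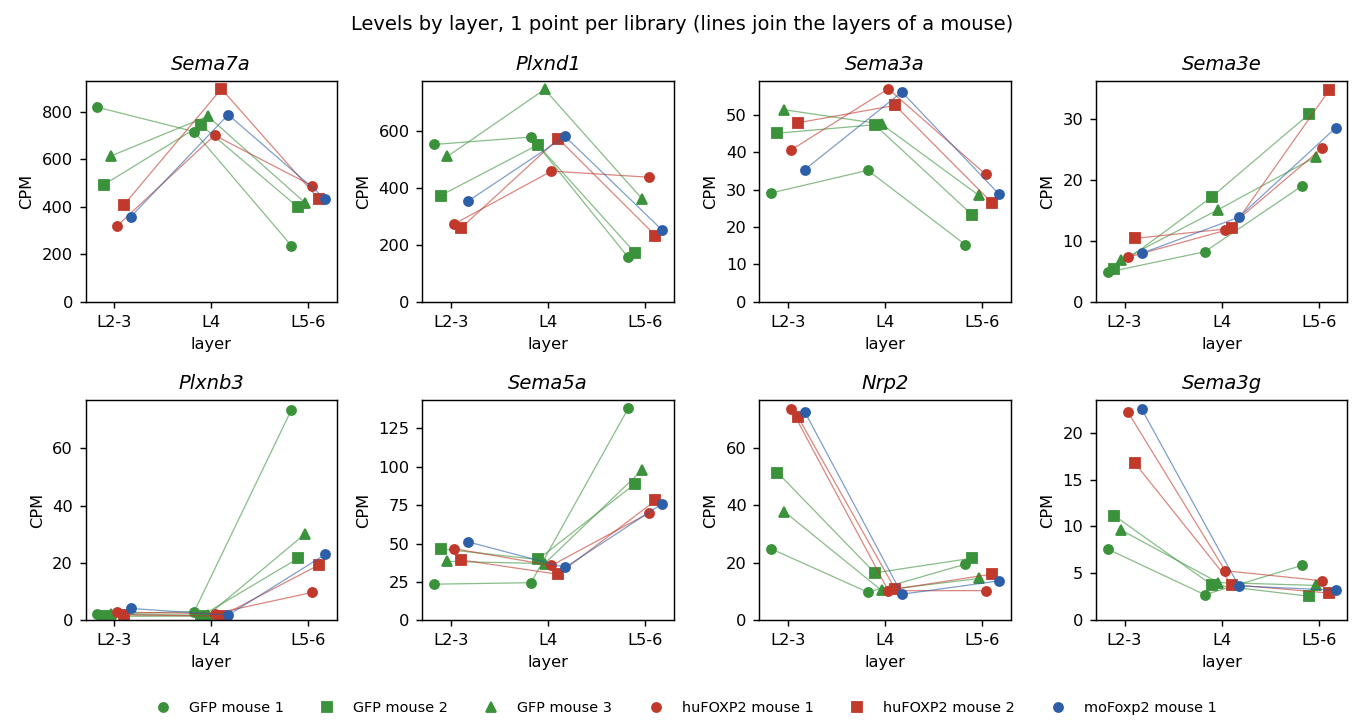
CPM by layer for 8 members, with 1 point per library and lines that join the layers of a mouse; colours stand for the mice. Sema7a and Plxnd1 peak in L4 in FOXP2 mice, Sema3e climbs toward L5-6 in each mouse, and Plxnb3 is near 0 outside L5-6.

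Plxnd1 stood at 577, 550 and 744 CPM in L4 of GFP mice and at 579, 458 and 572 CPM in L4 of FOXP2 mice. In L5-6 it stood at 156, 172 and 362 CPM and at 251, 437 and 232 CPM. The difference of L5-6 from L4 was -1.51 ± 0.21 in GFP mice (adjusted p = 0.00255, kept under each alternative) and -0.81 ± 0.21 in FOXP2 mice (adjusted p = 0.0227). The latter call did not pass without moFoxp2 (0.0966), without huFOXP2 mouse 2 (0.214) or by DESeq2 (0.0555), within a range of 5.12e-30 to 0.214. huFOXP2 mouse 1, the animal with photoreceptor markers, had the smallest difference, 437 against 458 CPM. The summed CPM of 5 layer 4 markers moved along the same layers, at 259 to 333 in L4 and 59.1 to 164 in L5-6 of GFP mice and at 215 to 337 and 115 to 208 in FOXP2 mice, and its part in Sema7a and Plxnd1 was not tested.

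Among the other plexins, members of families A and B went both ways. Of family A, the receptors of class 3 and class 6 ligands, Plxna1 and Plxna4 were lower in L5-6 than in L4, and Plxna2 was higher. Plxna1 stood at 420, 693 and 596 CPM in L4 of GFP mice and 203, 393 and 361 CPM in L5-6, a difference of -0.86 ± 0.10 (adjusted p = 0.00114), and in FOXP2 mice the difference was -0.57 ± 0.08 (adjusted p = 0.00127). Plxna4 fell in L5-6 by 0.69 in GFP mice (-0.69 ± 0.08, adjusted p = 0.00111) and by 0.42 in FOXP2 mice (-0.42 ± 0.08, adjusted p = 0.00528). Plxna2 exceeded L4 by 0.47 ± 0.09 in GFP mice (adjusted p = 0.00812) and 0.47 ± 0.10 in FOXP2 mice (adjusted p = 0.00926). Against L2-3, Plxna2 was 0.74 ± 0.10 higher in L5-6 of FOXP2 mice (adjusted p = 0.000207), kept under each alternative. For each of the 3 the sign of the difference between L5-6 and L4 was the same in 6 of 6 mice. Without GFP mouse 3 the call of Plxna2 did not pass (0.0928, within 9.31e-05 to 0.276), nor did those of Plxna2 (0.116, within 2.35e-08 to 0.116) and Plxna4 (0.05, within 4.95e-08 to 0.05) in FOXP2 mice without huFOXP2 mouse 2. Plxna3 differed from L2-3 by at most 0.37 (L5-6 of FOXP2 mice, 0.37 ± 0.07, adjusted p = 0.0024), which did not pass without the mouse as a block (0.0538).

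Of family B, the receptors of class 4 ligands, Plxnb3 was highest in L5-6 of each mouse, while Plxnb2 was highest in L2-3 of each FOXP2 mouse. Plxnb3, a receptor of Sema5a, stood at 1.41 to 4.15 CPM in all 12 libraries of L2-3 and L4. In L5-6 it stood at 73.3, 21.6 and 30.1 CPM in GFP mice and at 23.02, 9.72 and 19.3 CPM in FOXP2 mice. L5-6 thus stood apart in each mouse, by 4.34 ± 0.23 against L2-3 in GFP mice (adjusted p = 2.05e-05) and by 2.46 ± 0.27 in FOXP2 mice (adjusted p = 5.57e-05), both under each alternative. Plxnb1 and Plxnb2 exceeded L4 in L5-6 of GFP mice by 0.60 ± 0.13 (adjusted p = 0.0134) and 0.62 ± 0.12 (adjusted p = 0.00996). In FOXP2 mice they did so by 0.29 ± 0.11 and 0.30 ± 0.10, which did not pass (adjusted p = 0.0992 and 0.0583). Plxnb2 stood at 147, 155 and 129 CPM in L2-3 of FOXP2 mice, at 77.1, 78.7 and 78.3 CPM in L4 and at 106, 81.04 and 96.6 CPM in L5-6. In these mice it was lower than L2-3 in L4 (-0.91 ± 0.10, adjusted p = 4.97e-05) and in L5-6 (-0.62 ± 0.10, adjusted p = 0.000569), both kept under each alternative. In GFP mice the same differences were -0.42 ± 0.12 and 0.20 ± 0.12, which did not pass (adjusted p = 0.0854 and 0.268). Without GFP mouse 3 the calls of Plxnb1 (0.114, within 8.54e-06 to 0.114) and Plxnb2 (0.0868, within 4.8e-06 to 0.0868) in GFP mice did not pass. Plxnc1, the plexin that binds Sema7a, was lower in L4 (-0.76 ± 0.10, adjusted p = 0.000201) and L5-6 (-0.75 ± 0.10, adjusted p = 0.000202) than in L2-3 of FOXP2 mice, and passed in no contrast of GFP mice. The order of the L5-6 values of Plxnb3 in GFP mice (mouse 1, 3, 2) was also that of the oligodendrocyte marker sum (4340, 2288 and 1305 CPM) and of Sema4d. In L5-6 of GFP mouse 1, Sema5a and Sema5b too had their highest value. That library also held the highest marker sums of L5-6 for oligodendrocyte precursors (1420 against 537 to 801 CPM), astrocytes (3804 against 1823 to 2297), microglia (880 against 379 to 521) and ependyma (38.03 against 3.22 to 22.0). The part of these cell types in the 4 members was not tested in the contrasts between layers.

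Whether FOXP2 mice differed from GFP mice by a different amount in L5-6 than in L2-3 was tested over all 18 libraries with the mouse as a block. The difference passed for 11 members. The difference was positive, toward L5-6, for 5 (Plxna1, Plxna4, Plxnd1, Sema4f and Sema7a), where 6.75% of all tested genes were called in that direction. It was negative for 6 (Nrp1, Nrp2, Plxnb1, Plxnb2, Plxnb3 and Sema3g), where the share of all tested genes was 8.66%. By kind, of the 9 plexins 3 were called in each direction, both neuropilins were negative, and of the 20 semaphorins 2 were positive and 1 negative. Over the 31 members the median was -0.30 and over all tested genes -0.0017.

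The sizes of these differences were 1.21 ± 0.28 for Sema7a (adjusted p = 0.0162), 1.17 ± 0.34 for Plxnd1 (adjusted p = 0.0337), 0.79 ± 0.12 for Plxna4 (adjusted p = 0.0084) and 0.55 ± 0.14 for Plxna1 (adjusted p = 0.0193). Sema4f, a class 4 ligand, differed by 0.50 ± 0.16 (adjusted p = 0.0469). In the other direction stood Plxnb3 at -1.87 ± 0.41 (adjusted p = 0.0147), Nrp2 at -1.43 ± 0.23 (adjusted p = 0.00859) and Sema3g at -1.30 ± 0.34 (adjusted p = 0.025). The remaining differences were -0.87 ± 0.18 for Nrp1 (adjusted p = 0.0126), -0.81 ± 0.17 for Plxnb2 (adjusted p = 0.0126) and -0.66 ± 0.19 for Plxnb1 (adjusted p = 0.0313). In each mouse the measure is a ratio of L5-6 to L2-3. For each of the 11 members the ratios of the 3 GFP and the 3 FOXP2 mice did not overlap. The 11 were chosen by a test of these same ratios, so this separation adds no support to the calls. The share of all genes without overlap was not computed. For Plxna4 the log2 ratios were -0.83, -0.52 and -0.58 in GFP mice and 0.25, 0.29 and -0.10 in FOXP2 mice. For Sema7a they were -1.79, -0.31 and -0.56 against 0.27, 0.61 and 0.08. For Nrp2 they were -0.35, -1.25 and -1.38 against -2.40, -2.83 and -2.13. For Plxnd1 the ratios of GFP mouse 3 and moFoxp2 both rounded to -0.49, so that the sets nearly met. The sets also came close for Sema4f, at 0.21 in GFP mouse 2 and 0.22 in huFOXP2 mouse 2. For Plxnb1 the same 2 mice stood at 0.19 and 0.15. The plot of ratios shows all 11 members.

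**Figure D4:**
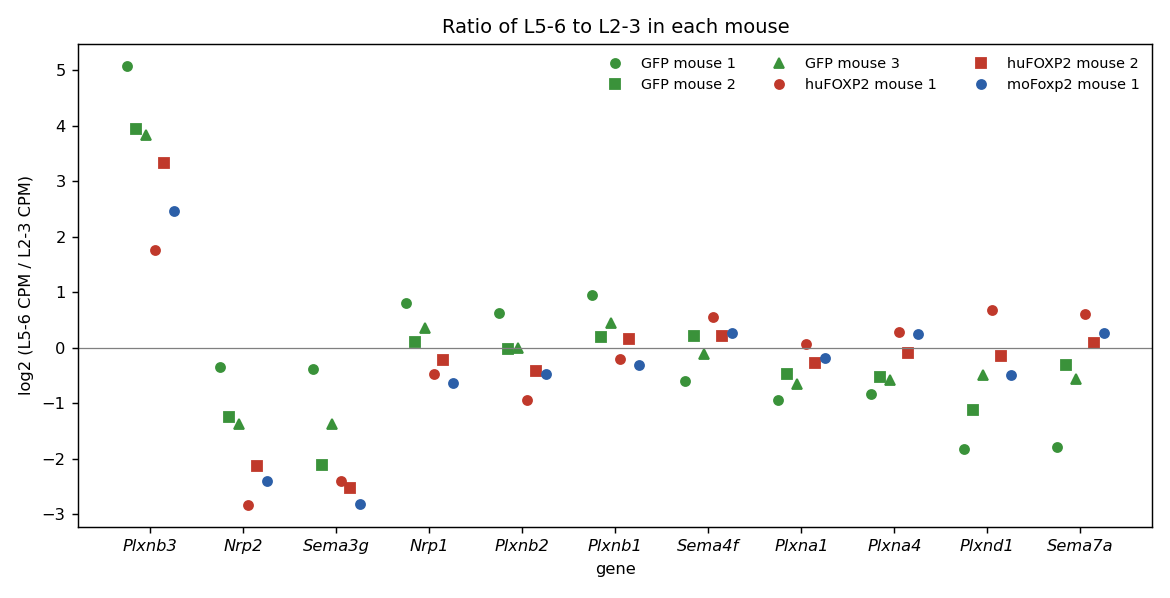
The log2 ratio of L5-6 to L2-3 CPM in each mouse, with 1 point per mouse, for the 11 members whose ratio differed between FOXP2 and GFP mice. Points of GFP mice lie above those of FOXP2 mice for Nrp1, Nrp2, Plxnb1, Plxnb2, Plxnb3 and Sema3g. They lie below them for Plxna1, Plxna4, Plxnd1, Sema4f and Sema7a. The sets nearly meet for Plxnd1 (GFP mouse 3 and moFoxp2) and for Sema4f and Plxnb1 (GFP mouse 2 and huFOXP2 mouse 2).

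These calls depended on few animals. Shares of all genes called in the fits below were not set beside the counts. A loss particular to the members therefore cannot be told from a loss over all genes. Without huFOXP2 mouse 1, 0 of the 31 members passed, and the adjusted p of the 11 ranged from 0.0625 (Nrp2 and Plxna4) to 0.225 (Sema4f). Without GFP mouse 1, 6 members passed, and without GFP mouse 3, 7 passed. With no block for the mouse, 0 passed. In the fit that left out huFOXP2 mouse 1 the sizes were 0.72 for Plxna4, -1.26 for Nrp2, 1.06 for Sema7a and -1.53 for Plxnb3. The meningeal markers moved with this result, being higher in L2-3 of FOXP2 mice (1481 to 2159 CPM) than of GFP mice (417 to 1248 CPM), as were 9 endothelial and pericyte markers (1103 to 1446 against 714 to 879 CPM). With the mean log2 level of the meningeal markers as a term, an alternative added after the values were seen, 0 members passed. The sizes in that fit were 0.74 for Plxna4 (adjusted p = 0.126), -0.99 for Nrp2 (0.142), 0.76 for Sema7a (0.253) and -0.67 for Sema3g (0.434), each with the sign it had without the term. Over all alternatives the adjusted p ranged from 2.33e-09 to 0.154 for Plxna4, from 7.6e-15 to 0.142 for Nrp2, from 5.33e-24 to 0.253 for Sema7a and from 4.09e-06 to 0.434 for Sema3g.

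The same test between L4 and L2-3 called 0 of the 31 members and 0.0% of all tested genes by edgeR. At an unadjusted p under 0.05 it held 8 members and 17.7% of all genes, and DESeq2 called 3 members (Nrp1, Nrp2 and Plxna4) and 3.3% of all genes. The members of smallest p were Nrp2 (-1.21 ± 0.24, adjusted p = 0.0572), Plxna4 (0.55 ± 0.12, adjusted p = 0.0629) and Nrp1 (-0.66 ± 0.19, adjusted p = 0.107).

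Within L2-3 alone, 0 members passed between FOXP2 and GFP mice by edgeR, where 0.0722% of all genes did. At an unadjusted p under 0.05 there were 10 members and 15.8% of all genes. DESeq2 called 5 members (Nrp2, Plxna4, Plxnd1, Sema3g and Sema7a) and 4.95% of all genes. The members of smallest p were Sema3g at 1.11 ± 0.19 (adjusted p = 0.0709), Sema7a at -0.83 ± 0.19 (adjusted p = 0.1055) and Nrp2 at 0.92 ± 0.22 (adjusted p = 0.11). For Sema3g, Sema7a and Nrp2 alike the FOXP2 values lay outside the range of the GFP values, as the CPM in L2-3 given above show. These 3 were chosen for the smallest p in the same values, and the share of all genes without overlap was not computed. Without GFP mouse 1, Plxna1 and Plxna4 passed. With the meningeal marker level as a term the differences were 0.86 for Sema3g (adjusted p = 0.109), -0.34 for Sema7a (0.259) and 0.41 for Nrp2 (0.226). Over all alternatives the adjusted p ranged from 8.4e-05 to 0.312 for Sema3g, from 0.000262 to 0.408 for Sema7a and from 0.000792 to 0.408 for Nrp2. Beside the meningeal and endothelial markers, which were higher in L2-3 of FOXP2 mice, markers of layer 2-3 neurons were lower (1041 to 1111 against 1384 to 1561 CPM in GFP mice), as were those of layer 4 neurons (76.4 to 87.03 against 136 to 242 CPM). The part of endothelial and neuronal markers in these members was not tested.

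In L4, 0 members passed (0.0275% of all genes). At an unadjusted p under 0.05 there were 3 members, Sema3a, Sema3d and Sema4g, and 3.14% of all genes, and DESeq2 called 0 members and 0.22% of all genes. Sema3a stood at 35.2 to 47.5 CPM in GFP mice and at 52.5 to 57.0 CPM in FOXP2 mice (0.35 ± 0.13, adjusted p = 0.9999). Sema4g stood at 141 to 153 against 127 to 130 CPM (-0.21 ± 0.09), and Sema3d at 6.25 to 8.01 against 4.98 to 6.24 CPM (-0.45 ± 0.19), both with an adjusted p of 0.9999. The groups did not overlap for these 3, though for Sema3d they nearly met, at 6.25 and 6.24 CPM. The 3 were chosen for a small p in the same values, and the share of all genes without overlap was not computed. With the level of layer 6 and subplate markers as a term, the difference of Sema3a was -0.12.

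In L5-6, 0 members passed (0.0196% of all genes). At an unadjusted p under 0.05 there were 8 members (Nrp1, Plxnb1, Plxnb2, Plxnb3, Sema3d, Sema5a, Sema5b and Sema6d) and 6.17% of all genes, and DESeq2 called 0 members and 0.365% of all genes. All 8 were lower in FOXP2 mice. The members of smallest p were Nrp1 at -0.42 ± 0.12, Sema5a at -0.55 ± 0.17 and Plxnb2 at -0.47 ± 0.15, each with an adjusted p of 0.713. GFP mouse 1 held the highest value of the 6 mice for each of these 8 members in L5-6. Its library also held the highest oligodendrocyte, precursor, astrocyte, microglia and ependyma marker sums of that layer. Without GFP mouse 1, or with the oligodendrocyte marker level as a term, 0 members passed. Over all 14 alternatives the difference was -0.52 to -0.36 for Nrp1, -0.67 to -0.32 for Sema5a and -0.57 to -0.33 for Plxnb2. The part of the other cell types was not tested. The plot of FOXP2 against GFP shows the 3 layers side by side.

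**Figure D5:**
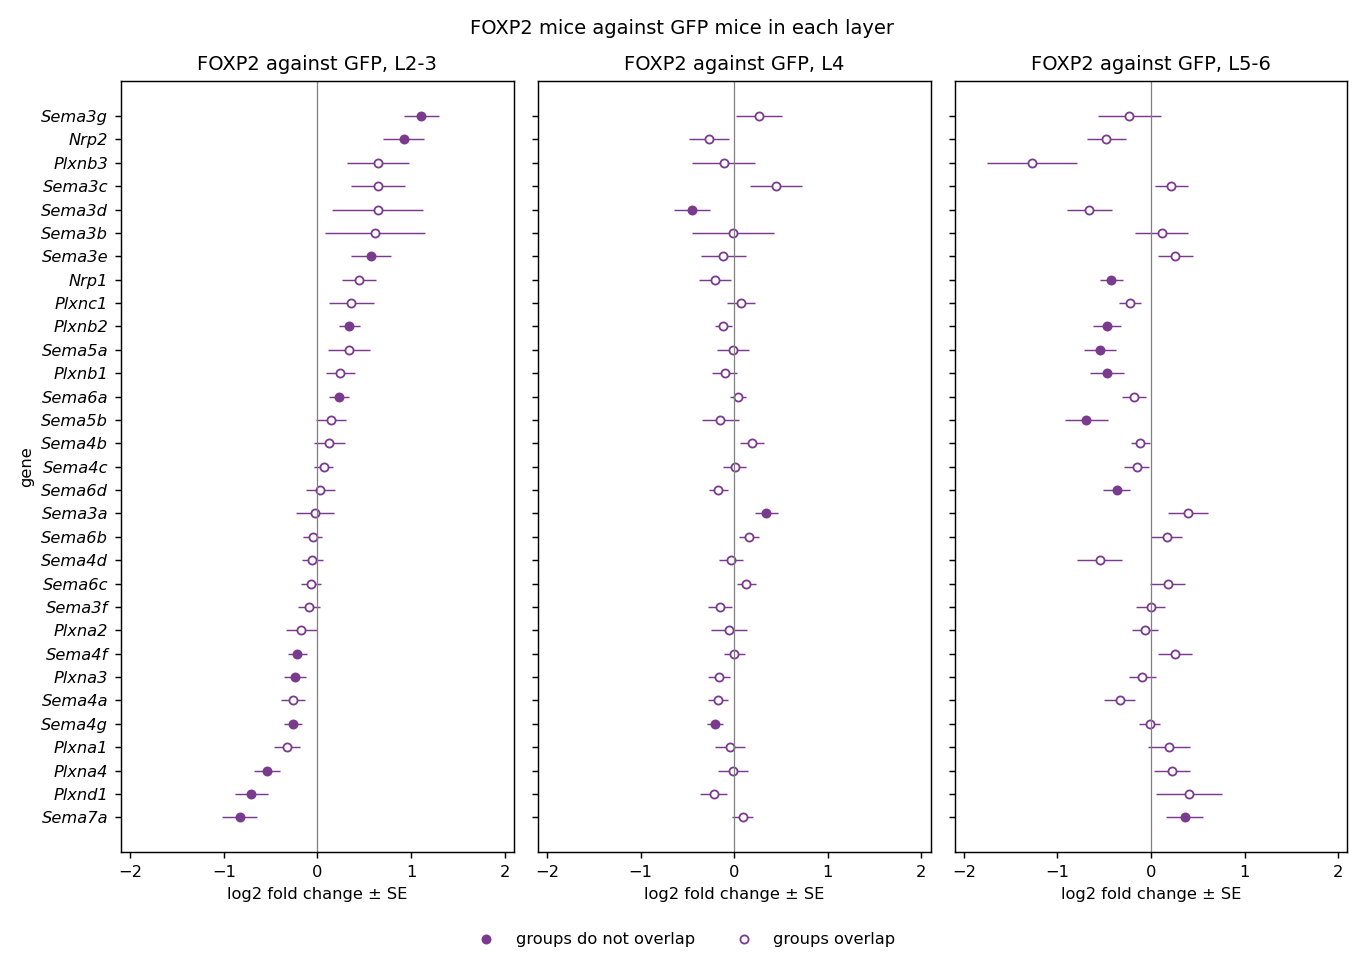
Log2 fold changes of FOXP2 against GFP mice with standard errors for each member in L2-3, L4 and L5-6, from edgeR fits of 6 libraries per layer. Filled points mark members whose 3 FOXP2 and 3 GFP values do not overlap; Sema3g and Nrp2 lie farthest to the right and Sema7a and Plxnd1 farthest to the left in L2-3, and none passed the test.

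Human and mouse cDNA were compared over the summed layers of each mouse. Raw counts of the layers were added, so each layer weighed by its sequencing depth, which was not equal between mice. The L2-3 libraries held 23404528 counts in huFOXP2 mouse 1 and 11087748 in huFOXP2 mouse 2. Differences between constructs and between the layer shares of these sums cannot be told apart here for members that vary by layer. For huFOXP2 against GFP, 0 members passed (0.0172% of all genes), 4 had an unadjusted p under 0.05 (Plxnb3, Sema3g, Sema5a and Sema5b; 4.32% of all genes), and DESeq2 called 0 (0.309%). For the single moFoxp2 mouse against GFP, 0 passed (0.0115%), Sema3g had an unadjusted p under 0.05 (2.07%), and DESeq2 called 0 (0.109%). For huFOXP2 against moFoxp2, 0 passed (0.0%), Sema3d had an unadjusted p under 0.05 (2.06%), and DESeq2 called 0 (0.126%). Sema3g differed from GFP by 0.76 ± 0.27 with human and 0.83 ± 0.33 with mouse cDNA, and the difference between the cDNAs was -0.06 ± 0.36. Sema3d differed between them by 0.57 ± 0.22. The lone moFoxp2 mouse is assumed to vary like the others in these fits.

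Of 40 genes that work with these ligands and receptors (co-receptors, Mical and Crmp proteins, GTPases and kinases), 38 were tested in the layer contrasts. Between L5-6 and L2-3, 5 were higher and 5 lower in GFP mice (12% and 10.7% of all tested genes), and 12 were higher and 12 lower in FOXP2 mice (19.8% and 21.6%). Mst1r, a receptor kinase that pairs with family B plexins, was higher in L5-6 by 1.80 ± 0.25 in GFP mice (adjusted p = 0.00142) and 1.22 ± 0.24 in FOXP2 mice (adjusted p = 0.00239). Mical2, an enzyme that oxidizes actin, was higher by 0.73 ± 0.15 (adjusted p = 0.0101) and 1.11 ± 0.07, and Met, another receptor kinase that pairs with family B plexins, was lower (-0.73 ± 0.08, adjusted p = 0.00052, and -0.54 ± 0.12, adjusted p = 0.00531). Between L4 and L2-3, 0 were higher and 5 lower in GFP mice (1.67% and 4.4% of all tested genes), and 14 were higher and 12 lower in FOXP2 mice (19.5% and 23.5%). Erbb2, which pairs with Plxnb1, was lower in L4 of GFP mice (-0.82 ± 0.17, adjusted p = 0.0268) and of FOXP2 mice (-1.62 ± 0.19, adjusted p = 8e-05). Between L5-6 and L4, 6 were higher and 7 lower in GFP mice (12.7% and 9.96% of all tested genes), and 10 were higher and 7 lower in FOXP2 mice (12.1% and 8.11%). Crmp1, a mediator of Sema3a signals in axons, was lower in L5-6 than in L4 of GFP mice (-0.75 ± 0.15, adjusted p = 0.00963) and of FOXP2 mice (-0.55 ± 0.07, adjusted p = 0.0006). In the test of the FOXP2 effect in L5-6 against L2-3, 2 were positive (L1cam, a co-receptor of Nrp1, at 0.58 ± 0.15, and Mical3 at 0.37 ± 0.11) and 7 negative (6.75% and 8.66% of all tested genes), led by Erbb2 at -1.32 ± 0.25 (adjusted p = 0.00989). The negative list also held Itga1, an integrin subunit, and Kdr, a receptor of vessels that pairs with Nrp1, at -0.82 ± 0.22 and -0.69 ± 0.21. Partner calls were not followed through the alternative fits. In this same test 0 members passed without huFOXP2 mouse 1, without the block or with the meningeal term. The part of endothelial markers, which were higher in L2-3 of FOXP2 mice, was not tested. In the comparisons of FOXP2 with GFP within layers and over summed layers, 0 of the list passed by edgeR.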

How the data were processed

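RNA of 3 cortical layers from 6 mice was measured in 18 libraries (total RNA, Illumina TruSeq, per the labels). The authors deposited raw read counts per gene with no normalization. STAR, HTSeq and mm10 are named in the submitters' processing notes, without versions. Neither gene models nor a strand setting is stated there. Library totals were 10111149 to 23404528 counts.

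Tests used edgeR 4.0.16 (quasi-likelihood, R 4.3.3) with TMM scaling, filterByExpr (minimum count 10, minimum total count 15) and Benjamini-Hochberg adjustment over all genes tested, at a threshold of 0.05. A standard error is the log2 change over the root of its F statistic. CPM use the TMM-scaled totals, and CPM per kb divide them by the union of exons in GENCODE M21, in which all 31 members were found, 30 with the same version. The scripts were tested on simulated data.

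Groups were read from the sample titles. Layers of a mouse were paired, as the labels state pooling within each mouse. Deviations from group means correlated at 0.262 to 0.698 in the 18 pairs of libraries of 1 mouse (median 0.508, 18 over 0.1). Between GFP and FOXP2 mice a replicate number pairs nothing. Each mouse is 1 replicate, and no label says that the 3 mice of a set came from separate litters, so p-values measure the spread between these mice. In tests with the mouse as a block, that is the spread of the layer differences between mice and not of their levels.

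The rule for named genes took all 31 members, Foxp2, up to 5 signalling partners per direction and comparison, and the 3 members of smallest p where no member passed. Members, lists and comparisons were chosen with earlier results of these data known. Alternatives were RLE size factors, DESeq2 1.42.0, no filter, a minimum count of 50, fits with or without a block, fits over 18 libraries, marker scores as terms (mean of log2 of CPM plus 1) and leaving out each mouse.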

Additional observations from a re-analysis of the deposited data

Results flagged for a closer look

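In 11 members the difference between FOXP2 and GFP mice was not the same in L5-6 as in L2-3, by the test of the difference itself over 18 libraries with the mouse as a block. On the log2 scale, as the effect in L5-6 minus that in L2-3, it was 1.21 for Sema7a, 1.17 for Plxnd1, 0.79 for Plxna4, 0.55 for Plxna1 and 0.50 for Sema4f. It was -1.87 for Plxnb3, -1.43 for Nrp2, -1.30 for Sema3g, -0.87 for Nrp1, -0.81 for Plxnb2 and -0.66 for Plxnb1. With the meningeal marker level as a term, without huFOXP2 mouse 1, or with no block for the mouse, 0 of these passed. Shares of all genes called in those 3 fits were not set beside this count. Groups of 3 mice were not tested for single values that stand apart.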

How the results depend on the processing

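In its lowest library each member had 18 or more counts, except Sema3b (7), and each set held 3 mice. Of 130 results named by member and comparison, 109 were called. Of these, 41 kept the call under each alternative run and 68 lost it under at least 1. Of the 21 not called, 7 passed under at least 1. Sema3a between FOXP2 and GFP mice in L4 reversed, to -0.12 with the level of layer 6 and subplate markers as a term. Other causes were not tested.

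Counts of called members moved by more than 1.5 times as follows. Shares of all genes were not set beside them, apart from those by DESeq2 given above. Leaving out 1 mouse gave 9 to 20 for L5-6 against L2-3 of GFP mice (17 with all), 0 to 13 for L4 against L2-3 of GFP mice (3), 8 to 23 for L5-6 against L4 of GFP mice (21), 10 to 16 for L5-6 against L4 of FOXP2 mice (17), 0 to 2 for FOXP2 against GFP in L2-3 (0) and 0 to 15 for the FOXP2 effect in L5-6 minus L2-3 (11). Without a filter on low counts the counts were 9 for L4 against L2-3 of GFP mice, 5 for FOXP2 against GFP in L2-3, 2 in L5-6, 19 for the FOXP2 effect in L5-6 minus L2-3, 8 for that in L4 minus L2-3 and 1 for huFOXP2 against GFP. Dropping the filter moved no named fold change by more than 0.023 (log2), while the median prior degrees of freedom of edgeR's spread estimate rose from between 4.03 and 6.17 in the 6 fits examined to 33.1 or more, infinite in 3, so the calls and very small p-values without a filter rest on that pooled spread. DESeq2 gave 5 for FOXP2 against GFP in L2-3 and 3 for the FOXP2 effect in L4 minus L2-3. A fit over 18 libraries gave 5 for L4 against L2-3 of GFP mice. With the meningeal marker score as a term, added after seeing the data, the FOXP2 effect in L5-6 minus L2-3 gave 0.

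With no replicate block the counts were 10 for L5-6 against L2-3 and 9 for L5-6 against L4 of GFP mice, and 0 for the FOXP2 effect in L5-6 minus L2-3. For FOXP2 against GFP, where mice share only a number (correlations -0.289 to 0.369, 4 of 9 pairs over 0.1), a replicate block over numbers 1 and 2 called 0 members in each layer and over summed layers.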
